A study of Mus musculus with 6 samples.

Results

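Voltage-gated sodium channels carry the inward current that starts and propagates the action potential, and 9 genes for their subunits were followed here in dorsal root ganglia (DRGs) of mice in which a Cre driver active in most nociceptors deletes Tlx3. The 9 genes, 6 for alpha subunits (Scn1a, Scn3a, Scn8a, Scn9a, Scn10a and Scn11a) and 3 for beta subunits (Scn2b, Scn3b and Scn4b), were chosen by symbol through the Ensembl identifiers of the count table, and 9 of 9 were found among its 47937 rows. The RNA came from DRGs of cervical, thoracic and lumbar levels together, in 3 control and 3 Tlx3cko libraries from mice of the C57BL/6 strain at an age of about 2 months. The comparison asks how the loss of Tlx3, a homeodomain transcription factor of developing sensory neurons, altered gene expression in the adult ganglion. Tlx3cko mice have the genotype Tlx3f/f;SNS-cre in the labels, written Tlx3F/F;Nav1.8-Cre in the paper, and the controls are labelled wild type and called controls in the paper. The paper names Tlx3F/F littermates as controls for its behavioural tests, and whether the sequenced controls carry floxed Tlx3 alleles is not clear from the sources used here. Nav1.8 is the protein of Scn10a, so the Cre driver takes its regulatory sequence from a gene measured here. Whether the driver sits in the Scn10a locus or elsewhere in the genome is not given in the sources used here. The driver was present, by the labels, in every Tlx3cko mouse and in no control, so an effect of the driver on Scn10a and on genes beside it cannot be told apart from the loss of Tlx3.

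An alpha subunit forms the pore and carries the voltage sensors, whereas beta subunits are single-pass membrane proteins that set the gating, surface level and adhesion of the complex. Small-diameter nociceptors rely on 2 alpha subunits that resist tetrodotoxin: Nav1.8 (Scn10a), which supplies most of the current of the action potential upstroke, and Nav1.9 (Scn11a), which opens near the resting potential and sets excitability. The toxin-sensitive channel Nav1.7 (Scn9a) amplifies small depolarizations in nociceptors, while Nav1.1 (Scn1a) and Nav1.6 (Scn8a) are best known in neurons with myelinated axons.

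Total counts per library, in replicate order, were 13761480, 15006871 and 18775628 for the controls against 15535247, 11458299 and 15303922 for Tlx3cko. Normalized counts are counts brought to a common effective library size, the mean of 14974185. Tlx3 itself had 1828, 2262 and 2433 counts across the controls against 1717, 1052 and 1475 across the Tlx3cko libraries, so its transcript was reduced but far from absent. Cre acts in only some of the cells of the tissue, and the part of this in the remaining transcript was not tested. Which part of the gene is removed is not given in the sources used here. Normalized, Tlx3 fell from 2057 ± 173 to 1495 ± 141 (SD, n = 3 each), for a log2 fold change of -0.46 (adjusted p = 0.0122, edgeR quasi-likelihood F test, Benjamini-Hochberg). That call was lost without control replicate 2 (adjusted p = 0.0606), without Tlx3cko replicate 2 (0.091) or without Tlx3cko replicate 3 (0.0706) in the same edgeR quasi-likelihood F test (Benjamini-Hochberg). It was also lost in the 4 libraries that are male by the transcripts described below, where the log2 fold change was -0.38 (adjusted p = 0.175, edgeR quasi-likelihood F test, Benjamini-Hochberg), the highest adjusted p of the 16 alternatives; the lowest was 3.25e-05.

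The libraries differed in ways that the genotype labels do not give. Xist, a transcript of female cells, reached 591 and 493 counts in control replicates 1 and 2, where the Y-linked Ddx3y had 0. In the other 4 libraries Xist had at most 2 counts and Ddx3y had 273 to 525. The groups were thus not balanced for sex, and for the sodium channel genes and Tlx3 a log2 fold change from the 4 male libraries alone is given beside the main one; in that fit the lone control is assumed to vary like the Tlx3cko libraries. Tlx3cko replicate 1 stood apart in genes that nerve injury induces: it had 338 counts on Atf3 against 51 to 141 in the other 5 libraries, 128 on Sprr1a against at most 8, and 158 on Npy against at most 8. Markers of skeletal muscle, a tissue outside the ganglion, were uneven too, with summed normalized counts of 1779, 503 and 88.5 across the controls against 2776, 2386 and 1478 across the Tlx3cko libraries. Neurons, the defining cells of the ganglion, were well represented: all 7 pan-neuronal genes were tested, 0 passed the threshold of edgeR's test (2 at an unadjusted p under 0.05, 1 by DESeq2, 0 by limma-voom), and their summed normalized counts were 123539, 131015 and 126407 across the controls against 142193, 130001 and 128502 across the Tlx3cko libraries, led by Tubb3. Spinal cord markers (Slc32a1, Gad2, Lbx1, Olig2 and Mog) were at or near 0, with at most 5.8 normalized counts for the 5 genes together in any library.

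Of the 9 subunit genes, 2 were lower (Scn11a and Scn3b), 1 was higher (Scn10a) and 6 did not pass an adjusted p of 0.05 in the edgeR quasi-likelihood F test (Benjamini-Hochberg). All 9 were among the 20006 genes that reached a total of 10 counts and were tested. Over those 20006 genes, 851 passed (4.25%), 512 of them lower (2.56%) and 339 higher (1.69%) in Tlx3cko DRGs. The 3 Tlx3cko values lay entirely below the 3 control values for Scn3a, Scn11a and Scn3b and entirely above them for Scn1a and Scn10a, and such separation was seen in 19.7% of all genes tested. The median log2 fold change was -0.09 over the 9 genes and -0.00365 over all genes tested, and the genes that passed went in both directions. With 3 libraries against 3, an exact permutation test on a single value cannot give a p below 0.1, which is why the adjusted p of the fit across all genes is used for single genes.

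**Figure D1:**
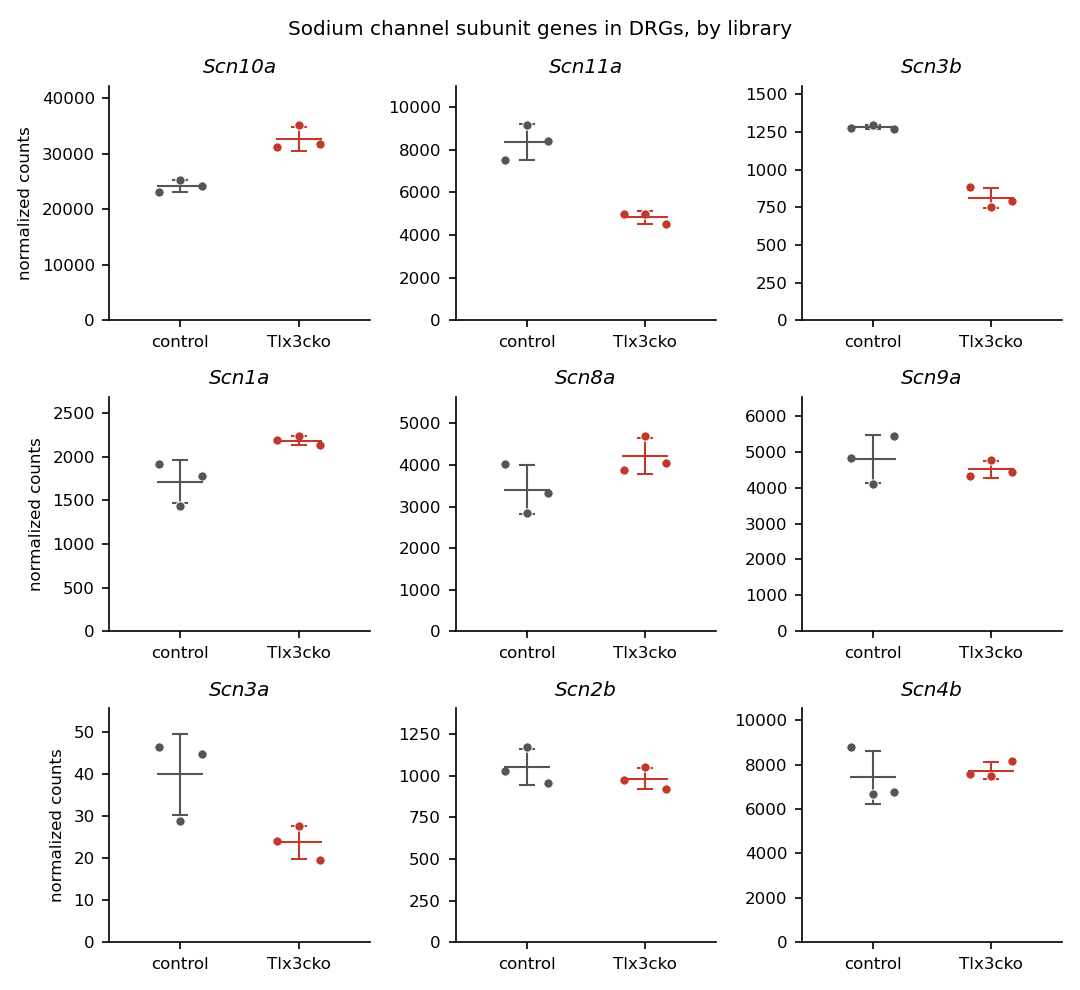
Normalized counts (vertical axes, linear, from 0) of the 9 subunit genes in each of the 3 control and 3 Tlx3cko libraries; points are libraries, the wide bar is the mean and the whiskers are 1 SD. The groups stand clear of each other for Scn10a (control at 24208 and Tlx3cko at 32659 on average), Scn11a (8362 and 4829) and Scn3b (1279 and 810), as well as for Scn1a and Scn3a, which did not pass the threshold, and overlap for Scn8a, Scn9a, Scn2b and Scn4b.

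The toxin-resistant alpha subunits moved in opposite directions. Scn10a (ENSMUSG00000034533, minus strand of chromosome 9, 119608456 to 119719322), the gene of Nav1.8, had 21405, 25364 and 30367 counts across the controls against 32325, 26769 and 32253 across the Tlx3cko libraries. Scaled for depth these became 23104, 25297 and 24223 against 31111, 35126 and 31741 normalized counts, so every Tlx3cko library lay above every control library. The mean rose 1.35-fold, from 24208 ± 1097 to 32659 ± 2160 normalized counts (SD, n = 3 each), for a log2 fold change of 0.43 with a standard error of 0.07 (adjusted p = 0.00281, edgeR quasi-likelihood F test, Benjamini-Hochberg). The male libraries alone gave 0.43 on the log2 scale (adjusted p = 0.0308, edgeR quasi-likelihood F test, Benjamini-Hochberg), and 0.0308 was also the highest adjusted p over 16 alternatives, the lowest being 1.68e-06.

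Scn11a (ENSMUSG00000034115, minus strand of chromosome 9, 119753759 to 119825456), the gene of Nav1.9, had 6955, 9179 and 10562 counts across the controls against 5203, 3796 and 4570 across the Tlx3cko libraries. After scaling, at 7507, 9155 and 8425 against 5007, 4981 and 4498 normalized counts, all 3 Tlx3cko libraries were below all 3 control libraries. From 8362 ± 826 normalized counts in control it fell to 4829 ± 287 (SD, n = 3 each), which left 57.7% of the control level. The log2 fold change was -0.79 with a standard error of 0.08 (adjusted p = 0.00011, edgeR quasi-likelihood F test, Benjamini-Hochberg), and -0.80 in the male libraries alone. These are bulk samples, in which fewer cells of a type and less RNA per cell cannot be told apart.

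Per kilobase of exon, the scale on which genes can be compared, Scn10a was the most abundant alpha subunit in both groups. The sum over 9 alpha subunit genes (the 6 above with Scn2a, Scn4a and Scn7a) was 5840 ± 204 normalized counts per kb in control and 6341 ± 351 in Tlx3cko DRGs (SD, n = 3 each). Scn10a made up 51.7%, 53.2% and 51.1% of that sum across the controls against 63.9%, 65.4% and 64.6% across the Tlx3cko libraries. Scn11a made up 22.6%, 25.9% and 23.9% across the controls against 13.8%, 12.4% and 12.3% across the Tlx3cko libraries. The shares of both genes separated the groups without overlap, at the smallest p that an exact two-sided permutation test allows here, 0.1. Those of Scn3a, Scn4a and Scn7a did so too. On average Scn7a went from 10.5% in control to 8.73% in Tlx3cko, Scn4a from 0.431% to 0.756% and Scn3a from 0.0552% to 0.0300%. Shares are parts of the same sum, so a rise in Scn10a by itself lowers the other shares. In levels rather than shares, Scn4a passed the threshold of edgeR's test (log2 fold change 0.94), while Scn7a (-0.14) and Scn3a (-0.76) did not. The ratio of Scn10a to Scn11a per kb rose from 2.16 ± 0.119 to 5.04 ± 0.362 (SD, n = 3 each). Their combined share, computed after the single values had been seen, was 76.1 ± 2.58% in control and 77.5 ± 0.505% in Tlx3cko (SD, n = 3 each, exact two-sided permutation p = 0.4). The mean of the combined share moved by less than that of either gene's share. Since the share of Scn10a rose and that of Scn11a fell, this restates the single values. Their combined level was 4449 ± 277 in control and 4914 ± 290 normalized counts per kb in Tlx3cko (SD, n = 3 each; exact two-sided permutation p = 0.1), the highest control library at 4719 and the lowest Tlx3cko library at 4743. Scaled to pan-neuronal genes it was 4561 ± 153 and 4807 ± 454 (SD, n = 3 each; exact two-sided permutation p = 0.5), with Tlx3cko replicate 1 below all 3 controls, so the separation depended on the scaling. In order of level per kb these 9 genes stood in the same order in both groups: Scn10a, Scn11a, Scn7a, Scn9a, Scn8a, Scn1a, Scn4a, Scn2a and Scn3a.

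**Figure D2:**
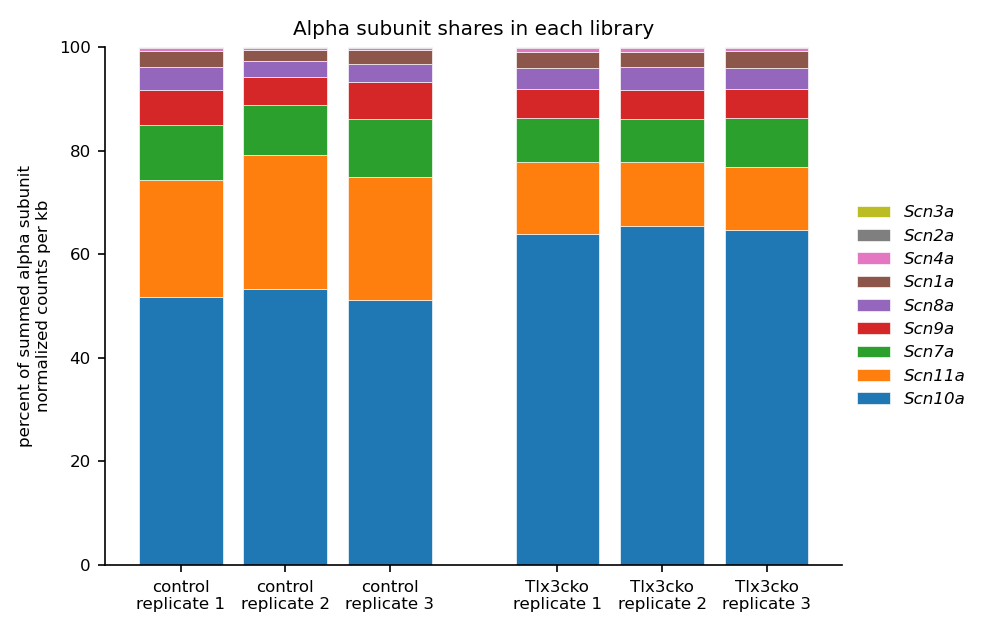
Share of each of 9 alpha subunit genes in the summed alpha subunit normalized counts per kb (vertical axis, percent) in each library; each stacked bar is 1 library. Scn10a widened from 52.0% on average in control to 64.6% in Tlx3cko libraries while Scn11a narrowed from 24.1% to 12.8%.

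Scn10a and Scn11a lie near each other on the minus strand of chromosome 9, and the part of the Cre driver in their values was not tested. Their start regions are shown with TAAT, the core of many homeodomain sites, marked, since Tlx3 is a homeodomain protein. RefSeq promoters (GRCm38.p6, 250 bases before to 50 after the start) were matched for 7 of the 9 subunit genes, and Scn3a and Scn3b were not among them. The Scn10a window lies within the span given above for Scn10a, so the RefSeq start used for it is downstream of the gene start in GENCODE. The sequences read 5′ to 3′ on the minus strand, chr9:119718983-119719282 for Scn10a and chr9:119825407-119825706 for Scn11a, with TAAT or its reverse complement ATTA in capitals.
Scn10a: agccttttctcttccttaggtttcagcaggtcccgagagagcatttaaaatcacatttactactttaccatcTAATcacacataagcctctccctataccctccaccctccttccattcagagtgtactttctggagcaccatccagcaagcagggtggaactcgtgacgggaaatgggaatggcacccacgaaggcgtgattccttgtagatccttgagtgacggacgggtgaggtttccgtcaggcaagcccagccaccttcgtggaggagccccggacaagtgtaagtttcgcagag
Scn11a: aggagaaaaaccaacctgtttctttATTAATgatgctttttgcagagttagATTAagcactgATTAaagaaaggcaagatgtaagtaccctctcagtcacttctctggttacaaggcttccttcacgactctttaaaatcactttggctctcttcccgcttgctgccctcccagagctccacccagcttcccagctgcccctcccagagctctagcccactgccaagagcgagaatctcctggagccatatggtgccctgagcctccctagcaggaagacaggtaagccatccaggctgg
Scn10a has 1 match and Scn11a has 4, of which 2 overlap each other in 1 run. Among the other windows, 1 of Scn2a has 6 matches and the second has 0, 1 of Scn8a has 2 and the second has 0, Scn2b has 2, Scn1a, Scn9a, Scn7a and Scn4b have 1 each, and Scn4a has 0. Matches thus occur both at genes that passed the threshold and at genes that did not. Of 32851 mouse promoter windows of the same length, 58% hold at least 1 match and 11.6% hold at least 4. A match describes the letters only, and binding of Tlx3 was not measured.

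The toxin-sensitive alpha subunits of the 9 genes, Scn1a, Scn3a, Scn8a and Scn9a, had 0 of 4 past the threshold of edgeR's test (3 at an unadjusted p under 0.05, 1 by DESeq2, 0 by limma-voom). Scn1a (Nav1.1; chromosome 2, 66270778 to 66440840) had 1778, 1442 and 2230 counts across the controls against 2272, 1704 and 2164 across the Tlx3cko libraries. After scaling the Tlx3cko libraries all lay above the control libraries, with 1712 ± 247 against 2184 ± 53.2 normalized counts (SD, n = 3 each). The log2 fold change was 0.35 with a 95% interval of 0.14 to 0.57 (adjusted p = 0.073, edgeR quasi-likelihood F test, Benjamini-Hochberg). Scn8a (Nav1.6; chromosome 15, 100869858 to 101045938) had 3735, 2863 and 4162 counts across the controls against 4041, 3577 and 4106 across the Tlx3cko libraries. The groups overlapped in control replicate 1, and the log2 fold change was 0.31 (0.06 to 0.55; adjusted p = 0.204, edgeR quasi-likelihood F test, Benjamini-Hochberg). Leaving out control replicate 1 changed both calls: without it, Scn1a had a log2 fold change of 0.44 (adjusted p = 0.0277) and Scn8a of 0.44 (adjusted p = 0.0278) in the edgeR quasi-likelihood F test (Benjamini-Hochberg). Without control replicate 2 the values moved the other way, to 0.24 for Scn1a and 0.20 for Scn8a, and neither passed. Scn1a also passed by DESeq2, and both genes passed when low counts were not filtered. In the male libraries alone the log2 fold changes were 0.29 for Scn1a and 0.34 for Scn8a, and neither passed. Over the 16 alternatives the adjusted p ran from 0.0039 to 0.292 for Scn1a and from 0.00947 to 0.543 for Scn8a.

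Scn9a, the gene of Nav1.7 (chromosome 2, 66480080 to 66634962), had 4480, 4113 and 6810 counts across the controls against 4487, 3639 and 4504 across the Tlx3cko libraries. Control replicates spread more widely than Tlx3cko replicates and enclosed them. Normalized, the level was 4790 ± 666 in control and 4509 ± 238 in Tlx3cko DRGs (SD, n = 3 each), with a log2 fold change of -0.09 and a 95% interval of -0.30 to 0.12, and -0.27 in the male libraries alone. Without control replicate 3 the value was 0.0129, so its sign rests on that library. The antisense gene Gm13629 covers 1.41% of the exon bases of Scn9a, and whether the counting used strand is not given in the sources used here. Scn3a, the gene of the mainly embryonic channel Nav1.3 that also returns in injured sensory neurons, was close to the limit of measurement with 43, 29 and 56 counts across the controls against 25, 21 and 20 across the Tlx3cko libraries. Its Tlx3cko values were all lower, with 40.0 ± 9.63 against 23.8 ± 3.94 normalized counts (SD, n = 3 each), but the log2 fold change of -0.76 had a 95% interval of -1.48 to -0.03 and did not pass the threshold (adjusted p = 0.315, edgeR quasi-likelihood F test, Benjamini-Hochberg). In the male libraries alone it was -0.92.

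Among the beta subunits, Scn3b fell and Scn2b and Scn4b did not pass the threshold. Scn3b (ENSMUSG00000049281, plus strand of chromosome 9, 40269217 to 40291618) encodes a beta subunit that associates with the pore without a disulfide bond and is found in nociceptors. Its counts were 1179, 1298 and 1592 across the controls against 916, 575 and 807 across the Tlx3cko libraries. The control libraries agreed closely once scaled, and all Tlx3cko libraries were lower. The mean went from 1279 ± 13.5 to 810 ± 65.0 normalized counts (SD, n = 3 each), 63.4% of control, with a log2 fold change of -0.66 and a standard error of 0.09 (adjusted p = 0.000734, edgeR quasi-likelihood F test, Benjamini-Hochberg). In the male libraries alone the log2 fold change of Scn3b was -0.65. Scn2b, which is tethered to the pore by a disulfide bond, had 950, 1174 and 1200 counts across the controls against 1010, 799 and 937 across the Tlx3cko libraries. The groups overlapped, and the log2 fold change of -0.10 had a 95% interval of -0.31 to 0.11 and became 0.0326 in the male libraries alone. Scn4b, whose protein is linked to resurgent current, had 8139, 6712 and 8501 counts across the controls against 7854, 5688 and 8286 across the Tlx3cko libraries. Its Tlx3cko values lay within the range of the controls after scaling, with a log2 fold change of 0.06 (-0.16 to 0.27) that turned to -0.0147 when libraries were scaled to pan-neuronal genes, to -0.00955 without control replicate 2 and to -0.00208 without control replicate 3, and was 0.19 in the male libraries alone. Scn2b and Scn4b lie next to each other on the plus strand of chromosome 9, 45117782 to 45130070 and 45138395 to 45154152, far from Scn3b on the same chromosome.

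Within the 9 genes, the order of levels per kb was the same in both groups for the 4 most abundant genes and for the least abundant, Scn3a. In control DRGs Scn10a led with 3039 ± 138 normalized counts per kb (SD, n = 3), followed by Scn4b with 1489 ± 237 and Scn11a with 1410 ± 139, which overlapped across libraries. Scn9a came next with 375 ± 52.2, and Scn3b, Scn2b and Scn8a formed a group of overlapping neighbours at 234, 226 and 216 normalized counts per kb. Scn1a followed with 154 ± 22.2 and Scn3a was last with 3.21 ± 0.773. In Tlx3cko DRGs Scn10a stood at 4100 ± 271 per kb (SD, n = 3), Scn4b at 1551 ± 75.2 and Scn11a at 814 ± 48.4, with no overlap between them. Scn3b moved from the fifth to the eighth place, at 148 ± 11.9 normalized counts per kb, behind Scn8a, Scn2b and Scn1a.

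Of the further subunit genes Scn2a, Scn4a and Scn7a, 1 of 3 was higher and 0 were lower by edgeR's test, by DESeq2, by limma-voom and at an unadjusted p under 0.05. By edgeR's test 1.69% of all genes tested were higher. Scn4a, the gene of the skeletal muscle channel Nav1.4, was the one that passed the threshold, with 186, 152 and 222 counts across the controls against 350, 282 and 312 across the Tlx3cko libraries. The groups did not overlap, and the log2 fold change was 0.94 (adjusted p = 0.00229, edgeR quasi-likelihood F test, Benjamini-Hochberg), and 0.93 in the male libraries alone. Among 5 skeletal muscle markers edgeR's test called 1 higher and DESeq2 called 0. The gene called was Myh4, with 218, 100 and 21 counts across the controls against 1256, 655 and 423 across the Tlx3cko libraries, and the part of muscle RNA in the value of Scn4a was not tested. By mean normalized counts Acta1 led these markers in control (251) and Myh4 in Tlx3cko DRGs (828). Scn7a, the gene of the sodium-sensing channel Nax, had a log2 fold change of -0.14 (-0.31 to 0.02) and Scn2a, the gene of Nav1.2, of 0.15 (-0.26 to 0.55); in the male libraries alone these were -0.25 and 0.20.

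Proteins that bind sodium channels, place them in the membrane or remove them were listed as 19 partner genes, all of which were tested. By edgeR's test 4 were higher, 1 was lower and 14 did not pass, and the median log2 fold change was 0.05. Among all genes tested 1.69% were higher and 2.56% were lower. The 4 that rose were Fgf11, a fibroblast growth factor homologous factor that binds the channel's C-terminus (log2 fold change 0.89), the axonal adhesion genes Nfasc (0.51) and Nrcam (0.33), whose proteins hold channels at nodes of Ranvier, and the contactin gene Cntn1 (0.51). Dpysl2, which encodes CRMP2, a cytosolic regulator of Nav1.7 trafficking, had 5487, 4430 and 5095 counts across the controls against 3017, 2821 and 3647 across the Tlx3cko libraries and was just past the threshold at a log2 fold change of -0.50 (adjusted p = 0.0497, edgeR quasi-likelihood F test, Benjamini-Hochberg). The call of Dpysl2 was lost on leaving out any library other than control replicate 3 (log2 fold change from -0.61 to -0.32 over all 6 such fits) and in the male libraries alone (-0.26), and it held under 6 of 16 alternatives. That of Nrcam was lost without control replicate 2 or 3 or Tlx3cko replicate 2 or 3 (0.31 to 0.35) and in the male libraries alone, where Cntn1 and Fgf11 did not pass either, at 0.50 and 0.71; it held under 9 of 16. Nfasc did not pass when libraries were scaled to pan-neuronal genes (0.44) and passed in the other 15 alternatives. Calls were also gained: Nedd4l, a ubiquitin ligase gene (-0.28 in the main fit), passed in the male libraries alone (-0.43), by DESeq2, with no filter on low counts and without control replicate 1 (-0.34), and Fgf12 (-0.26) passed without control replicate 1 (-0.33). The most abundant partner of the 19 by counts was the calmodulin gene Calm3, at 0.10 (-0.05 to 0.25) without passing the threshold. Calm3 was at 0.0447 without control replicate 3, at 0.0252 when scaled to pan-neuronal genes and at 0.21 in the male libraries alone. The Nav1.8 partner gene S100a10, which encodes p11, had a log2 fold change of 0.05 (-0.13 to 0.22), and Fgf13, a partner of Nav1.7, of -0.14 (-0.32 to 0.03). With each library left out S100a10 ran from -0.0108 to 0.10 and Fgf13 from -0.19 to -0.079. In the male libraries alone they were 0.0547 and -0.27.

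Other genes that set the sodium balance of the neuron changed in part. The sodium leak channel complex carries a voltage-independent background current. Of its 4 genes, Fam155a rose with a log2 fold change of 0.51 and the other 3 did not pass. Among all genes tested 1.69% were higher. Unc80 was the most abundant (0.39) and passed without control replicate 1 (0.57) and with no filter on low counts. Without control replicate 2 the log2 fold change of Unc80 was 0.21. The call of Fam155a was lost on leaving out any library other than control replicate 3 (0.45 to 0.58 over all 6 such fits) and in the male libraries alone (0.40), and held under 9 of 16 alternatives. The sodium pump returns the sodium that the channels let in, and of 9 pump genes 3 were lower, 1 was higher and 5 did not pass by edgeR's test. Over all genes tested the shares were 2.56% lower and 1.69% higher. The beta subunit Atp1b1, the most abundant of the 9, had a log2 fold change of 0.19 (0.05 to 0.32) and did not pass. The pump's regulatory subunit Fxyd2 had 13826, 16709 and 17177 counts across the controls against 7831, 4989 and 6947 across the Tlx3cko libraries, a log2 fold change of -1.11 (-1.30 to -0.93). Fxyd6 (-0.61) and the beta subunit Atp1b3 (-0.46) were also lower, and Fxyd7 was higher (0.60). The call of Atp1b3 was lost without control replicate 2 or 3 or Tlx3cko replicate 2 or 3 (-0.59 to -0.35 over the 6 fits that left out a library), and those of Fxyd6 (-0.57) and Fxyd7 (0.73) were lost in the male libraries alone. Pump genes thus differed in direction within the complex, as the channel subunits did.

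Markers of the neuron classes gave calls as well, beside 2.56% lower and 1.69% higher among all genes tested. The non-peptidergic nociceptor list had 6 of 6 genes lower, with summed normalized counts of 30765, 35449 and 38402 across the controls against 23641, 22876 and 21466 across the Tlx3cko libraries; Ret was the most abundant (-0.33), and the largest changes were in Lpar3 (-1.90), Mrgprd (-1.81), Gfra2 (-1.30) and P2rx3 (-0.99), with Plxnc1 at -0.51. The list for low-threshold C-fibre touch neurons had 4 of 4 lower (Th -2.91, Slc17a8 -1.88, Fam19a4 -1.39 and Gfra2 -1.30, the last being the most abundant and shared with the list before), with summed normalized counts of 3628, 6202 and 5735 across the controls against 1681, 1653 and 1620 across the Tlx3cko libraries. None of these defining markers was at 0. The peptidergic list had 2 of 4 higher, Calca (0.47, the most abundant) and Trpv1 (1.21), and 3 of 4 by DESeq2 and at an unadjusted p under 0.05, with sums of 17094, 17670 and 17368 across the controls against 27363, 24370 and 25927 across the Tlx3cko libraries. The paper reports that CGRP, a product of Calca, and TRPV1 both extended into non-peptidergic neurons in Tlx3cko mice. These 2 genes therefore do not mark peptidergic neurons alone here. For neurons with myelinated axons 2 of 7 were higher, Nefh (0.36, the most abundant) and Pvalb (0.59), and 5 did not pass. At an unadjusted p under 0.05 there were 4 higher. The sums were 36060, 33055 and 34156 across the controls against 42483, 43821 and 42015 across the Tlx3cko libraries. Nerve injury genes had 2 of 7 higher, Gap43 (0.46, the most abundant) and Ecel1 (4.10), and 4 at an unadjusted p under 0.05. Sums of the injury list were 5767, 6077 and 5700 against 9264, 6963 and 7435, the highest being Tlx3cko replicate 1. Without Tlx3cko replicate 1 the log2 fold changes of Scn10a, Scn11a and Scn3b were 0.47, -0.82 and -0.72. The other Tlx3cko libraries also had more Ecel1, at 129 and 130 normalized counts against 3.24 to 16.0 in the controls. Leaving out 1 library thus did not remove this difference. In Tlx3cko replicates 2 and 3 Gap43 was also above the controls, at 4539 and 5046 against 3305 to 3936. Atf3 was below them, at 66.9 and 70.9 against 91.8 to 112. Sprr1a, Gal and Jun lay within the control range, and Npy lay on either side of it. The part of injury genes in the values of the subunits was not tested. The part of neuron class composition in the values of the sodium channel genes was not tested. From earlier work, the paper reports largely unchanged numbers of non-peptidergic neurons that bind the lectin IB4 in Tlx3cko mice.

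Markers of cells other than neurons gave few calls, beside the 4.25% of all genes tested that passed in either direction. Satellite glia (4 genes, led by Apoe), Schwann cells (3, led by Pmp22 in control and Mbp in Tlx3cko DRGs), immune cells (4, led by Csf1r) and blood (4, led by Hba-a1) had 0 genes past the threshold of edgeR's test. At an unadjusted p under 0.05 these lists had 1, 2, 0 and 1 genes, DESeq2 called 1, 2, 0 and 0, and limma-voom called 0, 1, 0 and 0. Endothelium had 1 of 3 higher, Pecam1 (0.66); by mean normalized counts Cdh5 led in control (199) and Pecam1 in Tlx3cko DRGs (300).

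Genes whose log2 normalized counts followed each changed subunit most closely over the 6 libraries were picked by Pearson's r among 5980 genes whose mean reached 500 normalized counts, as a description. For Scn10a they included Miat (r = 0.996) and Mpp2 (0.986). For Scn11a they were Colgalt1 (0.996), Fnbp1 (0.995) and Tmem164 (0.994). Of these, Colgalt1 had a log2 fold change of -0.14 and did not pass the threshold, whereas Fnbp1 (-0.27) and Tmem164 (-0.63) passed. For Scn3b they were 1700037H04Rik (0.999), Klhl2 (0.996) and Dgkz (0.995). All points share the split into 3 control and 3 Tlx3cko libraries and 1 depth scaling, so r reflects the difference between the groups together with the spread within them. The highest of 5980 values over 6 libraries are also high in part because they were picked, so they do not show shared regulation.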

How the data were processed

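Raw read counts per gene, not normalized, were taken from the table that the authors deposited. Per the submitters' processing notes, STAR 2.5.2a and mm10 were used; the counting program, annotation release and use of strand are not given in the sources used here. Of 47937 rows, 47729 carry Ensembl identifiers, 47310 of which matched GENCODE M21 (GRCm38), the source of symbols, positions and exon lengths, and 208 are loci outside the annotation. The genotypes were compared by edgeR 4.0.16 (TMM, glmQLFit, glmQLFTest; R 4.3.3) over all genes that reached 10 counts in total, and a gene passed at p under 0.05 after Benjamini-Hochberg adjustment. Standard errors are the log2 fold change divided by the root of F. The script was tested on simulated data. Replicate libraries differed by more than sampling noise (chi-square per degree of freedom 4.46 to 10.7) and count as separate samples; the paper gives an n of 3 for each genotype, but the labels do not tie each library to 1 mouse, so p-values measure the spread between these samples. Named genes are the 9 subunit genes, the label checks, in each other list the members past the threshold if at most 6 (otherwise the 4 largest changes) with the most abundant (in each group where these differ), and 2 or 3 of the genes most like each changed subunit. Genes named outside that rule, such as S100a10, Fgf13, Scn2a, Scn7a, Nedd4l, Fgf12, Atf3, Sprr1a and Npy, were chosen after their values were seen. Members and lists were chosen with earlier results of these data known, and some genes were left out of the lists, shares and named genes after their values were seen, so the lists are not complete. Alternatives covered DESeq2 1.42.0, limma-voom (limma 3.58.1), other scalings and filters, the replicate block, each library left out, and male libraries alone, for the subunit, partner, leak and pump genes and Tlx3. Promoters are from RefSeq (GRCm38.p6).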

Additional observations from a re-analysis of the deposited data

How the results depend on the processing

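Under 16 alternatives Scn11a and Scn3b stayed lower and Scn10a stayed higher past the threshold in all 16, with log2 fold changes of -0.87 to -0.72, -0.73 to -0.60 and 0.36 to 0.47. The count of all genes past the threshold, 851, became 1529 with no filter on low counts and 553 in the male libraries alone, and ran from 488 to 938 when each library was left out; fewer libraries enter the latter fits. Subunit genes counted as higher, 1 in the main comparison, numbered 3 with no filter, 2 with DESeq2, and 1 to 3 with each library left out, the additions being Scn1a and Scn8a. Directions turned for genes far from the threshold: Scn9a ran from -0.19 to 0.0129 with each library left out, Scn2b was 0.0326 in the male libraries alone, and Scn4b was -0.0147 when scaled to pan-neuronal genes, a scaling that moved the median of all genes to -0.0753, and ran from -0.00955 to 0.20 with each library left out. The cause was not tested. With the replicate block 770 genes passed and 2 subunit genes were lower and 1 higher. Deviations of samples with the same number correlated at -0.23, 0.0108 and -0.263, and no sample correlated best with its own number. Each deviation was taken from the mean of its own group of 3, so these correlations are tied to each other. They cannot show whether the numbers pair the samples. At 20 to 56 counts a library, the 95% interval for the log2 fold change of Scn3a ran from -1.48 to -0.03.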

Other observations

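Genes around 2 groups of sodium channel genes were described, in windows that extend 500 kb to either side and were chosen after the values had been seen. Neither window covers Scn10a and Scn11a, where an effect of the Cre driver cannot be told apart from the loss of Tlx3. Around the row from Scn3a to Scn7a on chromosome 2, which also holds Scn2a, Scn1a and Scn9a, 6 other protein-coding genes were tested and 0 passed the threshold of edgeR's test (3 at an unadjusted p under 0.05, 1 by DESeq2, 0 by limma-voom). Around Scn2b and Scn4b on chromosome 9, 18 of 23 other genes were tested, of which 2 were lower and 1 was higher by edgeR's test, by DESeq2, by limma-voom and at an unadjusted p under 0.05, beside 4.25% of all genes tested that passed in edgeR's test in either direction. The 2 that were lower were the pump regulators Fxyd6 (45370185 to 45396159) and Fxyd2 (45399669 to 45410278), side by side on the plus strand, whereas Dscaml1, a neuronal adhesion gene, was higher, with 60, 83 and 89 counts in control and 137, 107 and 128 counts in Tlx3cko libraries. Scn2b and Scn4b themselves, in the same window, did not pass the threshold.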
